A study of Mus musculus with 16 samples.

Results

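The effect of TRIM28 loss on plantaris muscle that had not been overloaded was measured by comparing sham-operated knockout with sham-operated wild-type muscle across all genes. The plantaris is an ankle plantar flexor of the hindlimb. The members of the comparison were all 7 Sham libraries of the deposited count table, 3 KO Sham columns and 4 WT Sham libraries, of 15 libraries in all. Mice were Wild Type (written WT) or TRIM28 mKO (written KO), and every mouse was between 9 and 12 weeks old. The other 8 libraries, 4 WT and 4 KO, came from muscles overloaded mechanically by myotenectomy (MTE) and served to set the spread and as separate libraries for a second look. The sources used here do not name the promoter or Cre behind the knockout, the cells it acts in or the part of Trim28 it removes. The labels name 4 KO Sham samples and the table holds 3 KO Sham columns, so these are called columns 1 to 3 and were not matched to numbered samples. The labels do not tie libraries to separate mice, so p-values describe the spread between libraries, which may be technical in part.

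TRIM28, also called KAP1, is a corepressor. Zinc finger proteins with a KRAB domain bind DNA and recruit it, and it in turn brings the histone methyltransferase SETDB1 and heterochromatin proteins, which silence retroelements, clusters of zinc finger genes and some imprinted loci. In skeletal muscle it has also been studied as a phosphoprotein that responds to mechanical load.

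Total counts were 26.6 to 39.3 M (M for mega) per library in WT Sham and 21.1 to 46.1 M in KO Sham. All 10 markers of muscle were abundant in each Sham library, with means of 12.5 to 13.5 log2 CPM (counts relative to the TMM-scaled library size). Of the 10, 0 were called, where 0.511% of all tested genes were. Each group held a library that stood apart. WT Sham 1 had a mean of 6.08 log2 CPM over 22 macrophage markers where the rest of its group had 2.72 to 3.06, 4.1 against 1.87 to 1.94 over 35 interferon-stimulated genes, and a mitochondrial share of 6.95% against 13.3% to 14.4%. KO Sham column 3, the shallowest library, had a mitochondrial share of 20.5% against 11.3% and 12.2%, and a mean of 4.90 log2 CPM over extracellular matrix genes against 6.44 in both other columns. Values without these 2 libraries are given below wherever a call or the sign of a value or list median differed without them.

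Of 17230 genes in the table, 17212 passed the filter on low counts and were tested. At a Benjamini-Hochberg adjusted p under 0.05 (edgeR's quasi-likelihood test), 88 genes were called, 0.511% of those tested, of which 57 were higher in KO (0.331%) and 31 lower (0.18%). At least a 2-fold difference was reached by 43 of the higher and 27 of the lower genes. The median log2 fold change was 1.55 over the higher genes and -1.53 over the lower ones, against -0.01 over all genes tested. The groups did not overlap for any of the 88 genes, a separation seen in 7.48% of all genes tested (4.54% with KO higher and 2.93% with KO lower). The count rested on the spread taken from all 15 libraries. When the Sham libraries were fitted alone, edgeR called 6 genes, Gm39469, Esr1, Gm32312 and Acox2 as higher and Flrt1 and Egf as lower, while 865 genes had an unadjusted p under 0.05. A fit that left out both WT Sham 1 and KO Sham column 3 called 236, 102 higher and 134 lower, and 76 of the 88 genes were among them while 12 lost their call. Those 12 were Zfp781, Zfp329, Zfp706, Gm5141, AC144860.1, Kcnn3, Pkdrej, Gm47328, Intu and Tstd3 of the higher genes, and Sbk2 and Gm17823 of the lower ones.

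**Figure D1:**
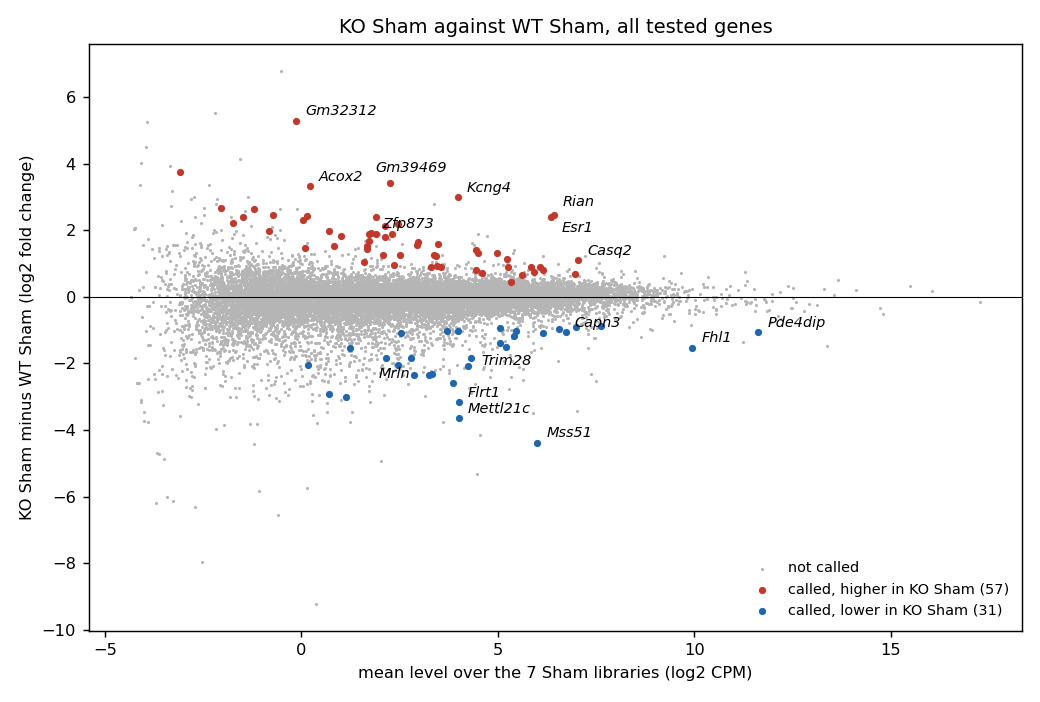
Each point is 1 of the 17212 genes tested, placed by its mean level over the 7 Sham libraries (log2 CPM, horizontal) and its log2 fold change, KO Sham minus WT Sham (vertical). The 57 genes called higher (red) and the 31 called lower (blue) span low to high levels, and named points are genes described in the text.

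Trim28, the targeted gene (ENSMUSG00000005566), lay at 49.0, 27.8, 36.1 and 30.1 CPM in WT Sham 1 to 4, while the 3 KO Sham columns had 12.7, 11.6 and 5.39 CPM. All 3 KO columns lay below all WT libraries, and Trim28 reads were still counted in each of them. Its log2 fold change was -1.84 (SE 0.30, adjusted p = 0.0101), and an exact two-sided permutation test over the 7 libraries gave p = 0.0286, which no arrangement of the 35 can undercut. Without the 2 libraries that stood apart it was -1.38 (adjusted p = 0.0112), and with Sham libraries alone the adjusted p was 0.183. The partners of TRIM28 in silencing were measured as a list of 22 genes, of which Trim28 itself was the 1 called member. Over all genes tested 0.511% were called. Setdb1, the histone methyltransferase it recruits, lay at 29.5, 26.8, 26.7 and 27.1 CPM in WT Sham and 31.0, 26.8 and 38.3 CPM in KO Sham, and its log2 fold change of 0.22 was not called (adjusted p = 0.612). Zfp57 and Zfp445, zinc finger proteins that direct TRIM28 to imprinted control regions, had log2 fold changes of 0.32 and 0.26 and were not called either, and that of Zfp445 was -0.07 without the 2 libraries. The median log2 fold change of the 22 genes was 0.15, and -0.07 without the 2 libraries.

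The genes called higher included a run of neighbouring zinc finger and predicted genes on chromosome 10. Between the first and the last of 8 called genes (chr10:81742821-82422882, GRCm38, 680 kb) 13 genes were tested, and the called ones, in order, were Gm3055, Zfp781, Zfp873, BC024063, AU041133, Gm47572, Zfp938 and Gm4924. Zfp873 and its numbered neighbours belong to the C2H2 zinc finger family, whose KRAB members recruit TRIM28. Zfp873 lay at 2.39, 2.03, 1.97 and 1.29 CPM in WT Sham 1 to 4 and rose to 6.90, 7.64 and 7.29 CPM across the KO columns (log2 fold change 1.92, SE 0.22, adjusted p = 0.00126). The KO columns were close to one another and well above every WT library. AU041133 had 1.73, 2.13, 1.26 and 2.26 CPM in WT Sham and 8.50, 8.45 and 12.4 CPM in KO Sham, the largest log2 fold change of the run at 2.40 (SE 0.30, adjusted p = 0.00219). For BC024063 the levels were 1.68, 2.87, 2.26 and 2.55 CPM in WT Sham against 8.50, 7.94 and 14.3 CPM in KO Sham (log2 fold change 2.13, SE 0.24, adjusted p = 0.00123). In these 3 genes, as in the rest of the run, the lowest KO column exceeded the highest WT library.

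The other called genes of the run had log2 fold changes of 1.97 for Gm47572 (SE 0.27), 1.90 for Zfp781 (SE 0.37), 1.66 for Gm3055 (SE 0.24), 1.44 for Gm4924 (SE 0.25) and 1.25 for Zfp938 (SE 0.21), with adjusted p of 0.00286 to 0.0354. The call of Zfp781 was lost without the 2 libraries that stood apart (log2 fold change 1.35, adjusted p = 0.0912). The 5 genes of the interval that were not called, Gm8274, Gm47573, Gm4767, Gm33378 and Gm32687, had log2 fold changes of 0.62 to 1.22. In 4 of them KO lay above WT without overlap, as in 4.54% of all genes tested. In the 500 kb on either side 35 genes were tested, 0 were called and the median log2 fold change was 0.0091, with a range of -2.09 to 0.85. The highest value, 0.85, was that of Zfp433, which lies beside Gm3055. Its levels were 6.28 to 12.36 CPM in WT Sham and 18.5, 12.45 and 26.3 CPM in KO Sham. These did not overlap, but Zfp433 was not called (adjusted p = 0.300) and had 0.36 without the 2 libraries. Several genes of the run are close copies of one another, so reads may have been divided between them and the values of single members are uncertain. What the copies share can be seen in the promoters below.

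**Figure D2:**
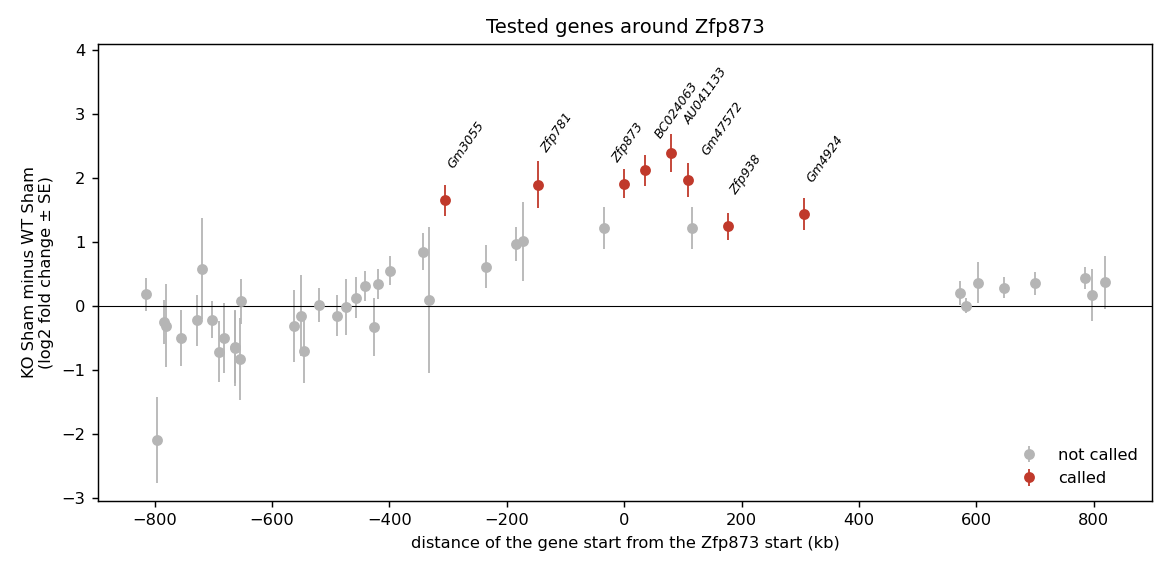
Log2 fold change, KO Sham minus WT Sham, of tested genes around Zfp873 (vertical, bars are ± 1 SE) against the distance of each gene's start from that of Zfp873 in kb (horizontal). The 8 called genes (red) lie together, and the 5 genes between them that were not called (grey) are also above 0, at 0.62 to 1.22.

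Promoters of 7 of the 8 run genes were present in RefSeq (GRCm38.p6, 250 bases before to 50 after the start). Those of Zfp781 and Gm3055 were identical over all 300 bases, BC024063 matched both at 93%, Zfp938 matched Zfp781 at 67% and Zfp873 at 66%, and Gm4924 matched the others at 44.7% to 46.7%. The 5 below are shown because they let the likeness of the run be read letter by letter. Capitals mark ACTTTGCA, CCTGTCAC and GCACTTCC, the 3 longest stretches (8 letters each) that all promoters but that of Gm4924 hold on the strand printed, found from these sequences after their values were known.
Zfp781 (chr10:81930463-81930762, minus strand): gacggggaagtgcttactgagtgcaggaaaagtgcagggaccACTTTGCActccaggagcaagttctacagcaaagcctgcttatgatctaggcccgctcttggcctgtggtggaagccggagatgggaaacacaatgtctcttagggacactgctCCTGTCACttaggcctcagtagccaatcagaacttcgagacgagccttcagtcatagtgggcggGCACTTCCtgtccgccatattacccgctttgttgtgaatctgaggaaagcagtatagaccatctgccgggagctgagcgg
BC024063 (chr10:82083070-82083369, plus strand): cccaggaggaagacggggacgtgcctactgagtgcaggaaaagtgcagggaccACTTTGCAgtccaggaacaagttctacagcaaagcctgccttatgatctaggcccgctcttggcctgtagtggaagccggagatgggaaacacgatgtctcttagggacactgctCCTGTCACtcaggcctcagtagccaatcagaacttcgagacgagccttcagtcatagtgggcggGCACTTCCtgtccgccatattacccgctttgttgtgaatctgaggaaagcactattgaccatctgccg
Zfp873 (chr10:82047873-82048172, plus strand): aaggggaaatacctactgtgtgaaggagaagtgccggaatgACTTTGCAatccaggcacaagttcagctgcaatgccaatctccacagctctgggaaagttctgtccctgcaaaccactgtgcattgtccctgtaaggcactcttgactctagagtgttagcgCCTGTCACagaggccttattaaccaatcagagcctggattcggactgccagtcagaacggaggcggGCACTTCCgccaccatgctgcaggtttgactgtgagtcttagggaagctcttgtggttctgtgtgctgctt
AU041133 (chr10:82127763-82128062, plus strand): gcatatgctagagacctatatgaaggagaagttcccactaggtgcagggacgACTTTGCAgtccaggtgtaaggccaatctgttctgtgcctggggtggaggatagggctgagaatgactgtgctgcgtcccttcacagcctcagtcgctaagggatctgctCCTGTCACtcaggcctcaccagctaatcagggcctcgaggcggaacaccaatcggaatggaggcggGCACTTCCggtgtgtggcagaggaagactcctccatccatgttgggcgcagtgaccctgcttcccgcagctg
Zfp938 (chr10:82241231-82241530, minus strand): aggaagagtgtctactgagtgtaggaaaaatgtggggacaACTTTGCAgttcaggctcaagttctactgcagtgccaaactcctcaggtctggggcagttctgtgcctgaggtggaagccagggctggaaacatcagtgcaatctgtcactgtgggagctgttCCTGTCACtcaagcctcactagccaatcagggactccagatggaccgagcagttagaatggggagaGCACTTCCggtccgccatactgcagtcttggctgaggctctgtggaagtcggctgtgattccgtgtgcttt
Read on both strands, ACTTTGCA was held by 125 of the 11679 tested genes with a promoter (1.07%), by 7 of the 40 called higher (17.5%) and by 0 of the 24 called lower. CCTGTCAC was held by 222 of the 11679 (1.9%), by 7 of those higher and by 2 of those lower (8.33%), and GCACTTCC by 393 (3.37%), by 6 of those higher (15%) and by 0 of those lower. For each stretch, 6 of the higher genes belong to the run by the choice of the stretch, and the others are Pdzd3 for ACTTTGCA and Zfp97 for CCTGTCAC. TGCCGC, the core that ZFP57 reads at imprinted regions, was in 18.3% of all these promoters, 10% of those higher and 20.8% of those lower, and AGGTCA, a nuclear receptor element, in 12.2%, 2.5% and 16.7%. The E-box CANNTG, read by myogenic factors, was in 64.1%, 85% and 83.3%. Promoters of called genes held fewer CpG pairs, with medians of 10.5 in the higher and 9 in the lower genes against 20 in all, and these shares are descriptions without a test.

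Across the genome, the numbered Zfp genes, which include many KRAB zinc finger genes, had 7 of 337 tested members higher and 0 lower, with a median log2 fold change of 0.15 that became -0.02 without the 2 libraries. They made up 12.3% of the genes called higher and 1.96% of those tested. Besides Zfp781, Zfp873 and Zfp938 they were Zfp934, Zfp97, Zfp329 and Zfp706. Zfp934 on chromosome 13 lay at 1.99, 3.61, 2.43 and 3.35 CPM in WT Sham and at 10.2, 9.79 and 11.8 CPM in KO Sham (log2 fold change 1.90, SE 0.26, adjusted p = 0.00286). Its neighbour Gm5141 was also higher (1.06, SE 0.22), though it was called in 1 of the 7 leave-one-out fits and lost its call without the 2 libraries (adjusted p = 0.0550). Zfp97 on chromosome 17 was highest in KO Sham column 3, at 60.8 CPM against 30.4 and 27.7 in the other columns and 10 to 18.7 in WT Sham (log2 fold change 1.40, SE 0.26, adjusted p = 0.0274), and had 0.79 without the 2 libraries (adjusted p = 0.0467). Close to it Riok2, a kinase of ribosome maturation, rose from 23.0, 28.0, 29.3 and 26.7 CPM to 66.2, 52.3 and 57.9 CPM (log2 fold change 1.14, SE 0.17, adjusted p = 0.00473). Zfp329, which lies near Trim28 itself on chromosome 7, had a log2 fold change of 0.81 (SE 0.15, adjusted p = 0.0269) and lost its call without the 2 libraries (adjusted p = 0.0847). The smallest change of all called genes was that of Zfp706, 0.45 (SE 0.09, adjusted p = 0.0495), whose call was lost in each of the 7 fits that left out 1 Sham library and without both libraries (adjusted p = 0.0774).

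Called genes lay near one another in other places too. In all, 28 of the 88 lay within 1 Mb of another called gene, in 11 runs. In 10 of these runs the genes went in 1 direction. All runs but that of 8 genes on chromosome 10 were pairs, and 57 of the 88 genes were higher. How often sets of this size would lie so near, or go in 1 direction, was not measured. On chromosome 9 (chr9:124270358-124312696) the long noncoding RNA Gm39469 and its neighbour 2010315B03Rik both rose. Gm39469 lay at 1.81, 1.45, 1.80 and 1.85 CPM in WT Sham and at 13.7, 17.5 and 24.6 CPM in KO Sham, and its adjusted p of 3.91e-06 was the smallest in the comparison (log2 fold change 3.42, SE 0.22). The 4 WT libraries were nearly level and the lowest KO column exceeded them all several times over. On chromosome 17 the predicted gene Gm1976 (1.53, SE 0.19) and AC144860.1 (1.25, SE 0.25) rose. AC144860.1 lies within Gm1976 on the same strand, so the 2 may share reads. On chromosome 2 Cdh4, which encodes a cadherin of cell adhesion (1.84, SE 0.37), rose. So did Tcfl5, a transcription factor known from testis (2.39, SE 0.47), in the same span of 1200 kb. Of the 16 genes tested in that span, the others were not called. Among these others 11 were negative and 3 positive, with a median of -0.10. AC144860.1 was not called in any fit that left out 1 library or both (adjusted p = 0.113 without both), and Cdh4 and Tcfl5 were each called in 1 of the 7. Tcfl5 was higher in WT Sham 1 (0.293 CPM) than in the other WT Sham libraries (0.0839 to 0.117 CPM).

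On chromosome 12 the imprinted noncoding RNA gene Rian, a host gene of small nucleolar RNAs in the Dlk1-Meg3 domain that is normally read from the maternal copy, rose together with B830012L14Rik. Rian lay at 36.5, 53.6, 40.4 and 45.1 CPM in WT Sham and at 128, 408 and 183 CPM across the KO columns in order (log2 fold change 2.45, SE 0.37, adjusted p = 0.00705). Column 2 was the highest, and all 3 were above every WT library. For B830012L14Rik the log2 fold change was 1.79 (SE 0.36, adjusted p = 0.0395). Meg3 and Mirg, noncoding RNAs of the same domain, had 14.6 to 20.0 and 2.05 to 2.93 CPM in WT Sham. In KO Sham columns 1 to 3 Meg3 lay at 30.1, 123 and 30.3 CPM and Mirg at 5.20, 17.4 and 4.41 CPM, so for both the groups did not overlap and column 2 was highest. They missed the threshold, with log2 fold changes of 1.84 and 1.90 and adjusted p of 0.0853 and 0.0544, and were called without the 2 libraries (adjusted p = 0.0490 and 0.0345). The protein-coding gene of the domain, Dlk1, had a log2 fold change of -0.26 at levels under 0.4 CPM. Of 38 imprinted genes tested, Rian was the 1 called, where 0.511% of all genes tested were. The list's median was 0.08, and -0.09 without the 2 libraries. H19, a noncoding RNA of another imprinted domain, and its neighbour Igf2, a fetal growth factor, had 0.70 (adjusted p = 0.418) and -0.53 (adjusted p = 0.485).

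Esr1 encodes the estrogen receptor alpha, a hormone-bound transcription factor. It lay at 32.4, 51.2, 36.3 and 41.6 CPM in WT Sham and at 226, 215 and 197 CPM in KO Sham (log2 fold change 2.40, SE 0.20, adjusted p = 5.92e-05). The KO columns were close to one another and far above the WT libraries. Without the 2 libraries that stood apart the log2 fold change was 2.35, and it was 2.68 in the separate MTE libraries. No other member of 37 nuclear receptor genes was called, where 0.511% of all genes tested were, and the median was -0.05. The estrogen-related receptors Esrra, Esrrb and Esrrg had -0.01, 0.21 and 0.52, and Esrra had 0.48 without the 2 libraries.

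**Figure D3:**
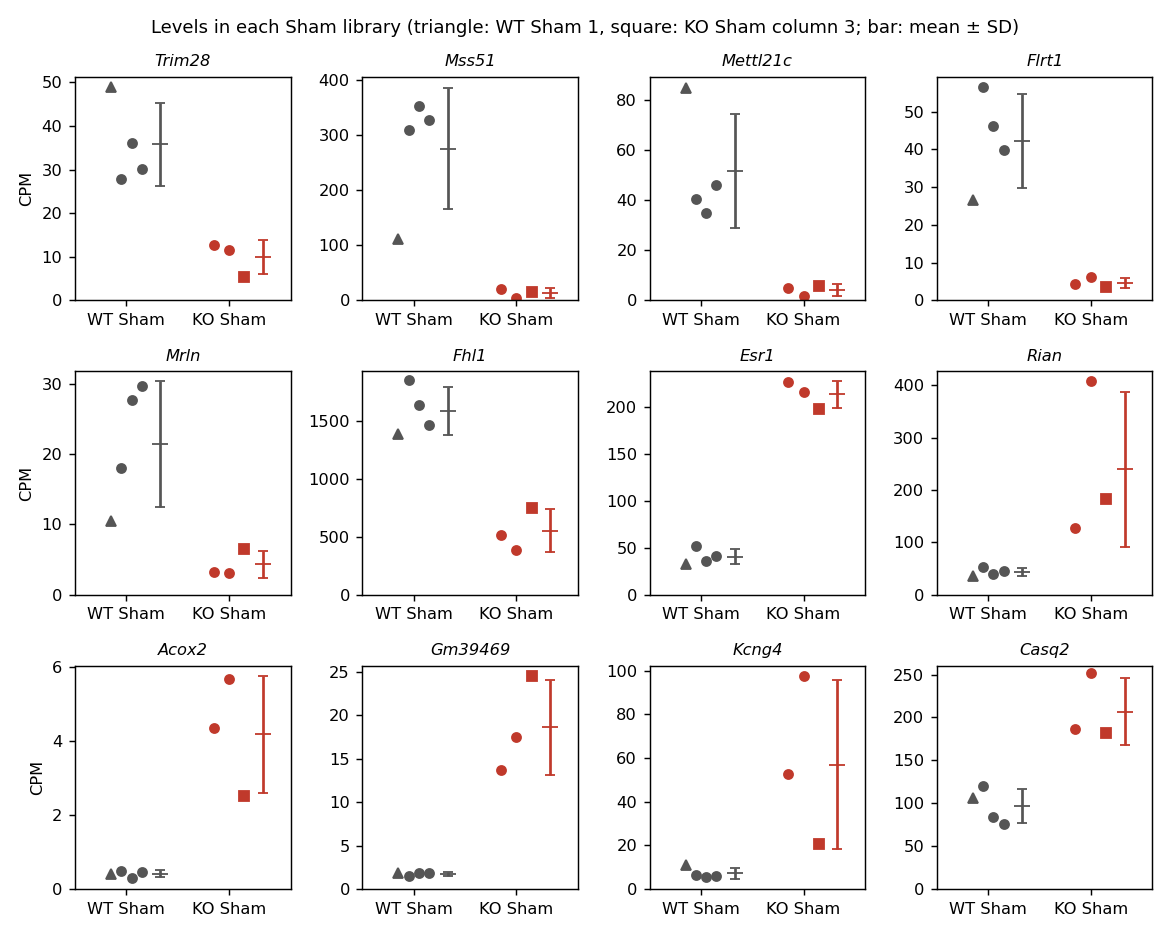
Level in CPM (vertical, linear from 0) of 12 genes in each Sham library, WT Sham in grey and KO Sham in red, with the mean and SD as bars. The groups do not overlap for any of the 12 genes, with WT Sham 1 (triangle) and KO Sham column 3 (square) marked so that their part can be seen.

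The other genes that rose encode enzymes, channels and membrane proteins of diverse kinds. Acox2, a peroxisomal oxidase of branched fatty acids and bile acid precursors, lay at 0.399, 0.483, 0.294 and 0.470 CPM in WT Sham and at 4.34, 5.67 and 2.51 CPM in KO Sham (log2 fold change 3.33, SE 0.37, adjusted p = 0.000886). Every KO column exceeded every WT library, and the call held in all 7 fits that left out 1 library. Kcng4, a modifier subunit of voltage-gated potassium channels, had 10.9, 6.35, 5.66 and 5.75 CPM in WT Sham and 52.5, 97.7 and 20.6 CPM in KO Sham (log2 fold change 2.99, SE 0.55, adjusted p = 0.024). The KO columns ranged widely, with column 3 lowest, and Kcng4 was called in 2 of the 7 leave-one-out fits. Kcnn3, a calcium-activated potassium channel, rose as well, from 5.4 to 9.41 CPM in WT Sham to 16.4, 21.8 and 25.3 CPM in KO Sham (1.6, SE 0.28, adjusted p = 0.0184), and was not called without the 2 libraries (1.42, adjusted p = 0.0618).

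Casq2, the calsequestrin of slow fibres and heart that stores calcium in the sarcoplasmic reticulum, lay at 106, 120, 83.8 and 76.2 CPM in WT Sham and at 187, 252 and 182 CPM in KO Sham (log2 fold change 1.10, SE 0.20, adjusted p = 0.0231). The KO columns were all above the WT libraries, and the call held in 3 of the 7 leave-one-out fits. Casq2 was the 1 called gene of 13 slow fibre genes, where 0.511% of all genes tested were called. The list's median was 0.15, and 0.57 without the 2 libraries. The slow troponin T and I genes Tnnt1 and Tnni1 had 0.17 and -0.01, or 0.57 and 0.63 without these libraries. Sln, which encodes sarcolipin, a peptide inhibitor of the calcium pump, had 43.3, 7.93, 4.82 and 9.57 CPM in WT Sham and 33.2, 73.9 and 75.8 CPM in KO Sham. WT Sham 1 lay above KO Sham column 1, so the groups overlapped, and the log2 fold change of 1.88 was not called (adjusted p = 0.257), whereas it was 2.84 without the 2 libraries (adjusted p = 0.0101).

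Among enzymes and transporters that rose, Carns1, which makes carnosine, had a log2 fold change of 1.22 (SE 0.22), Car14, a carbonic anhydrase, 0.90 (SE 0.18), Sord, sorbitol dehydrogenase, 0.82 (SE 0.17), and Slc47a1, an exporter of organic cations, 0.90 (SE 0.17). Casr, the calcium-sensing receptor, rose by 1.26 (SE 0.25) on the log2 scale. Genes of membrane traffic and adhesion were among them too, with Rab15, a small GTPase of endosomes, at 1.55 (SE 0.24), Scfd2, a Sec1 family protein, at 0.90 (SE 0.13), and Igsf9b, a synaptic adhesion protein, at 1.68 (SE 0.25). Suds3, a subunit of the Sin3 corepressor with histone deacetylase, lay at 44.1, 49.9, 49.3 and 50.2 CPM in WT Sham and at 81.9, 85.7 and 78.4 CPM in KO Sham (0.76, SE 0.10, adjusted p = 0.0025). Both groups were tight and did not overlap, though the change was under 2-fold. Prepl, a prolyl endopeptidase-like hydrolase, rose by 1.32 (SE 0.17, adjusted p = 0.0025) and Herc4, a ubiquitin ligase, by 0.90 (SE 0.14). Fam174b (2.19, SE 0.30) and Mfsd4a, a membrane transporter (1.88, SE 0.24), were called in all 7 leave-one-out fits.

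A few genes that rose, grouped here after their values were seen, are best known from testis. Klhl10, a kelch protein of spermatids, lay at 0.0839 to 0.160 CPM in WT Sham and at 0.487, 0.784 and 0.490 CPM in KO Sham (log2 fold change 2.22, SE 0.42, adjusted p = 0.0284). Fbxo47, an F-box protein of meiosis, went from 0.168 to 0.798 CPM in WT Sham to 2.35, 2.33 and 3.31 CPM in KO Sham (2.31, SE 0.42, adjusted p = 0.0231), and Pkdrej, a polycystin-related sperm protein, had 1.54 (SE 0.31, adjusted p = 0.0394). Without the 2 libraries Pkdrej was not called (adjusted p = 0.0642). These genes were not in the list of germline genes, of which 6 were tested and 0 called, with a median of -0.18. Over all tested genes 0.511% were called. Dazl, an RNA-binding protein of germ cells, had the smallest p of that list (0.65, adjusted p = 0.658), and had -0.04 without the 2 libraries.

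Genes annotated neither as protein-coding nor as pseudogenes were 12 of the 57 called higher (21.1%) and 6 of the 31 called lower (19.4%). These noncoding and unconfirmed genes were 14.2% of those tested. Pseudogenes were 0 of the higher and 1 of the lower genes (3.23%), against 2.98% of those tested. The largest fold change was that of Gm32312, an antisense gene opposite Ostn. It lay at 0.0798, 0.161, 0.294 and 0.176 CPM in WT Sham and at 8.01, 3.09 and 9.37 CPM in KO Sham (log2 fold change 5.29, SE 0.46, adjusted p = 5.92e-05). Ostn, which encodes the muscle-derived peptide musclin, had 3.01, 8.41, 7.80 and 9.04 CPM in WT Sham and 2.97, 1.16 and 1.59 CPM in KO Sham, lower in KO without overlap, yet not called (-1.87, adjusted p = 0.0918) unless the 2 libraries were left out (-2.04, adjusted p = 0.0358). The sources used here do not say whether counting used the strand, so reads of this pair, and of the other called genes among the 17 with a tested gene on the opposite strand, may not be fully separated. Gm45670, another antisense gene, had 0.117 to 0.252 CPM in WT Sham and 0.730, 1.82 and 0.735 CPM in KO Sham (2.63, SE 0.51, adjusted p = 0.0354), and was called in 1 of the 7 leave-one-out fits. The predicted genes Gm47328, Gm3830 and Gm31659 rose by 2.68, 2.46 and 2.42 on the log2 scale, and 9030612E09Rik by 1.48. Gm47328 was not called without the 2 libraries (2.56, adjusted p = 0.0535). Gm38534 was at 0 in 3 WT Sham libraries and 0.0587 CPM in the fourth, against 0.266, 0.278 and 0.184 CPM in KO Sham.

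Among the genes that fell, Mss51, a mitochondrial protein enriched in skeletal muscle, changed most. It lay at 112, 310, 354 and 329 CPM in WT Sham and at 21.5, 3.54 and 14.6 CPM in KO Sham (log2 fold change -4.39, SE 0.64, adjusted p = 0.00473). WT Sham 1 was the lowest WT library and still far above the KO columns. Mettl21c, a lysine methyltransferase of muscle, had 85.0, 40.4, 34.7 and 46.3 CPM in WT Sham and 5.13, 1.59 and 5.82 CPM in KO Sham (-3.64, SE 0.46, adjusted p = 0.00225). Its relative Mettl21e, on the same stretch of chromosome 1 (chr1:44009408-44218961), fell from 3.56, 4.74, 6.33 and 8.89 CPM to 0.642, 0.177 and 1.53 CPM (-3.02, SE 0.55, adjusted p = 0.0247). Between them lay 5 tested genes, none called, with log2 fold changes of 0.19 to 0.58. Mettl21c and Mettl21e were the called members of 20 protein methyltransferase genes, where 0.511% of all genes tested were called. The list's median was 0.08, and Mettl21a, another member of the family, had 0.30.

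Flrt1, a leucine-rich adhesion protein, lay at 26.6, 56.5, 46.1 and 39.8 CPM in WT Sham and at 4.27, 6.10 and 3.68 CPM in KO Sham (-3.16, SE 0.50, adjusted p = 0.00776). AC109619.1, which lies next to it, fell as well (-2.92, SE 0.55, adjusted p = 0.0284). Both overlap Macrod1 on the opposite strand, a gene with a log2 fold change of 0.41 that was not called (adjusted p = 0.476). In the fast myosin heavy chain cluster of chromosome 11 the noncoding genes 2310065F04Rik (-2.58, SE 0.45, adjusted p = 0.0184) and 9430073C21Rik (-1.84, SE 0.35, adjusted p = 0.0292) fell. Myh2, the myosin gene opposite 9430073C21Rik, had 4320 ± 569 CPM in WT Sham (SD, n = 4) and 3254 ± 439 CPM in KO Sham (SD, n = 3), a difference that was not called (-0.41, adjusted p = 0.619).

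Some of the genes that fell, grouped here after their values were seen, act in the muscle fibre. Mrln, which encodes myoregulin, a micropeptide that inhibits the calcium pump SERCA, lay at 10.4, 18.0, 27.7 and 29.6 CPM in WT Sham and at 3.27, 3.11 and 6.55 CPM in KO Sham (-2.33, SE 0.40, adjusted p = 0.0157). The lowest WT library, WT Sham 1, was above the highest KO column, column 3, and without these 2 libraries the log2 fold change was -2.98 (adjusted p = 0.00109). The pump gene of fast fibres, Atp2a1, had -0.24 and was not called (adjusted p = 0.830), and had 0.05 without the 2 libraries. Of 27 calcium handling genes Casq2 was called higher and Mrln lower, where 0.511% of all genes tested were called. The list's median was -0.17, or 0.05 without the 2 libraries. Fhl1, a LIM domain protein of the sarcomere, lay at 1389, 1859, 1644 and 1465 CPM in WT Sham and at 521, 384 and 753 CPM in KO Sham (-1.52, SE 0.26, adjusted p = 0.0152). Pde4dip, myomegalin, an anchoring protein, had 3858 to 5042 CPM in WT Sham and 2094, 1952 and 2235 CPM in KO Sham (-1.06, SE 0.21, adjusted p = 0.0395). Capn3, the muscle calpain whose loss causes a limb-girdle dystrophy in people, had 130, 163, 152 and 138 CPM in WT Sham and 65.8, 59.3 and 85.2 CPM in KO Sham (-1.06, SE 0.14, adjusted p = 0.00286). For all 3 of these genes the WT and KO values were well separated.

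Signalling genes that fell were Pak1, a kinase downstream of Rac and Cdc42 (-1.50, SE 0.23), Rps6ka2, a kinase of the ERK pathway (-0.95, SE 0.19), and Egf, epidermal growth factor (-1.16, SE 0.18). Egf lay between 54.8 and 62.5 CPM in WT Sham and at 25.7, 26.5 and 27.9 CPM in KO Sham. Its 2 groups were each tight, and it was 1 of the 6 genes called from the Sham libraries alone. Asb15, a SOCS box adaptor of ubiquitin ligases expressed in muscle, lay at 35.0, 48.8, 35.9 and 27.6 CPM in WT Sham and at 10.2, 4.17 and 11.8 CPM in KO Sham (-2.09, SE 0.36, adjusted p = 0.0169). Nhs, the gene of Nance-Horan syndrome in people (-2.05, SE 0.30), Prune2 (-1.38, SE 0.21), Golga7b, a partner of palmitoyltransferases (-2.04, SE 0.34), and the predicted genes Gm4544 (-2.36, SE 0.42) and Gm28651 (-1.85, SE 0.37) fell too.

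Metabolic genes that fell were Oat, ornithine aminotransferase, Cyp27a1, the mitochondrial sterol hydroxylase, Slc16a10, a transporter of aromatic amino acids, and Chac1, which degrades glutathione and is induced by the transcription factor ATF4. Oat lay at 225, 265, 284 and 258 CPM in WT Sham and at 150, 125 and 144 CPM in KO Sham (-0.88, SE 0.12, adjusted p = 0.00377), and Cyp27a1 at 49.6 to 69.8 CPM against 32.4, 28.4 and 26.6 CPM (-1.04, SE 0.15, adjusted p = 0.00473). Chac1 was variable in WT Sham, at 10.1, 12.3, 31.1 and 28.1 CPM, and level in KO Sham, at 3.81, 4.43 and 3.86 CPM (-2.34, SE 0.39, adjusted p = 0.0128). It was the 1 called member of 22 genes of the amino acid and ATF4 response, where 0.511% of all genes tested were called. The list's median was -0.08, and 0.33 without the 2 libraries. In this list Atf4 itself had -0.15 and Asns, asparagine synthetase, 0.01. The log2 fold change of Slc16a10 was -0.94 (SE 0.19, adjusted p = 0.0395).

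The lists of muscle, growth, metabolic and cell type genes that follow had 0 called members each. Since 0.511% of all tested genes were called, lists of this size can hold 0 calls at that share. The 0 calls are therefore no result about these lists. Among lists of the muscle fibre, medians were -0.19 over 10 muscle markers, where Mylpf, a fast myosin light chain, had the smallest p (-0.77, adjusted p = 0.124), -0.20 over 16 fast fibre genes, and -0.14 over 13 developmental sarcomere genes, in which Myh3, embryonic myosin, had -1.66 (adjusted p = 0.0918). The developmental median was 0.25 without the 2 libraries. For 25 genes of the neuromuscular junction and denervation the median was 0.09, and Chrna9, an acetylcholine receptor subunit, lay at 0.205 to 0.399 CPM in WT Sham and at 0.929, 2.91 and 1.84 CPM in KO Sham, without overlap but not called (2.65, adjusted p = 0.0872). The median over 25 myogenic and satellite cell genes was 0.04, with Mymk, the fusion protein myomaker, at -2.74 (adjusted p = 0.349). Mymk lay at 2.71, 1.10, 0.0419 and 0.147 CPM in WT Sham 1 to 4 and at 0.243, 0.101 and 0.0613 CPM in KO Sham. The groups overlapped at these low levels, and Mymk had -1.33 without the 2 libraries.

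Lists of protein turnover and growth also had 0 called members, where 0.511% of all tested genes were called. Medians were -0.14 over 24 atrogenes (Klf15, a transcription factor, at -0.70), 0.03 over 37 proteasome subunits (Psma7 at -0.27), -0.01 over 31 autophagy and lysosome genes (Ctss, a lysosomal protease, at -2.62) and -0.03 over 32 growth signalling genes, in which Gdf11, a relative of myostatin, had -0.98 (adjusted p = 0.134). Ctss lay at 274 CPM in WT Sham 1 and at 13.2 to 17.1 CPM in the other WT libraries, and its log2 fold change without the 2 libraries was -0.06. The growth signalling and proteasome medians also changed sign without them, to 0.03 and -0.02, and the atrogene median was -0.40. The ubiquitin ligases of muscle atrophy, Fbxo32 and Trim63, had -0.08 and -0.74. Over 82 cytosolic ribosomal protein genes the median was -0.20 (Rps20 at -0.34) and 0.04 without the 2 libraries.

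In the metabolic lists the medians were 0.06 over 49 oxidative phosphorylation subunits (Ndufb5 at 0.34), 0.17 over 34 fatty acid oxidation and citrate cycle genes (Fh1, fumarase, at 0.34), and -0.19 over 28 genes of glycolysis and glycogen. In the last, Phka1, a phosphorylase kinase subunit, lay at 469, 764, 636 and 674 CPM in WT Sham and at 325, 221 and 429 CPM in KO Sham, without overlap and not called (-0.97, adjusted p = 0.113), although it was called without the 2 libraries (-1.36, adjusted p = 0.0115). The 15 mitochondrially encoded genes had a median of 0.33, with mt-Atp6 at 0.75, and their median changed sign to -0.52 without the 2 libraries, as did mt-Atp6 to -0.43. The median of the fatty acid and citrate cycle genes changed sign too, to -0.04.

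Medians of the stress and proliferation lists were 0.30 over 24 heat shock and unfolded protein response genes (Hspa5, an endoplasmic reticulum chaperone, at 0.61, adjusted p = 0.231), 0.05 over 20 p53 targets (Perp at -1.27), -0.30 over 27 cell cycle genes (Ccne2, cyclin E2, at 0.73) and -0.15 over 17 immediate early genes (Nr4a2 at 0.93). Without the 2 libraries the cell cycle median was 0.35, the p53 median -0.15 and the immediate early median 0.11.

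Markers of other cells in the muscle were read from bulk RNA, in which fewer cells of a type and less RNA per cell cannot be told apart. The macrophage median was -2.11 (Lyz2, lysozyme, at -2.53), with summed levels of 361 to 4345 CPM in WT Sham and 189 to 404 CPM in KO Sham and 0 of the 22 markers at 0 in either group, and was 0.04 without the 2 libraries. Interferon-stimulated genes had -0.60 (Cxcl10, a chemokine, at -2.67) and 0.38 without them, erythroid genes -0.90 (Hbb-bt, a globin, at -1.23 and at 0.70 without them) and 0.15, and 10 other leukocyte markers -0.96 (Gzmb, granzyme B, at -3.98) and -0.36. Over 35 extracellular matrix genes the median was -0.18 (Fbn1, fibrillin, at -0.59) and 0.29 without the 2 libraries. Lyz2, Cxcl10 and Gzmb had -0.16, -0.27 and -1.62 without them. Medians were -0.34 to 0.15 over markers of endothelium (-0.26, Cldn5 at -1.21), fibro-adipogenic progenitors (-0.34, Pdgfra at -0.38), smooth muscle and pericytes (-0.29, Kcnj8 at -0.39), Schwann cells (-0.20, Pmp22 at -0.20), tendon (0.15, Scx at 0.47) and adipocytes (-0.31, Cidec at -0.70, and a median of 0.05 without the 2 libraries). The part of these shifts in the 88 calls was not tested beyond the fit without the 2 libraries.

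**Figure D4:**
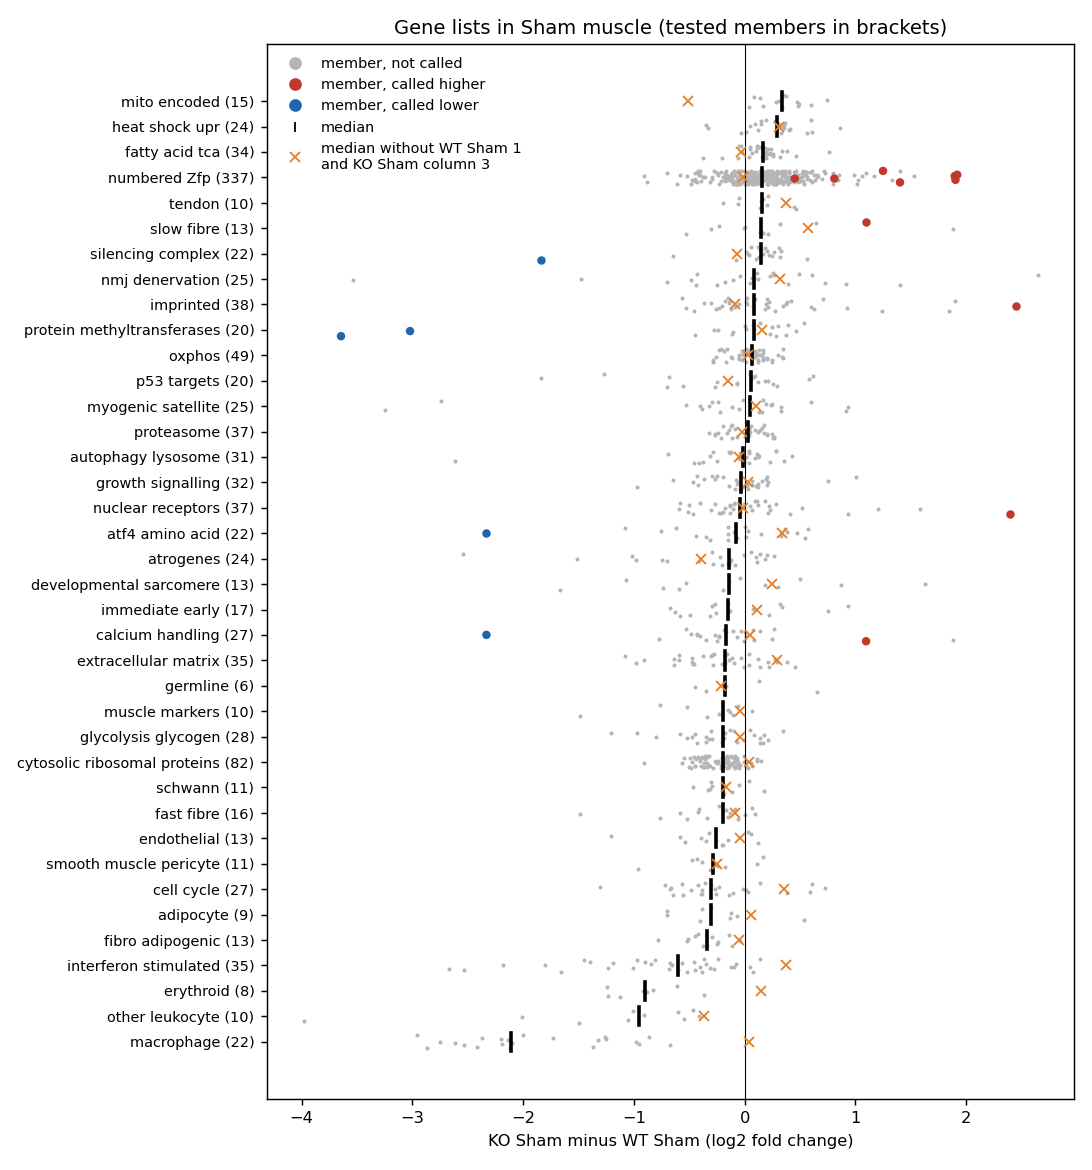
Log2 fold changes, KO Sham minus WT Sham (horizontal), of the tested members of the 38 gene lists (rows), with calls in red and blue, the median as a bar, and the median without WT Sham 1 and KO Sham column 3 as a cross. Medians of the macrophage, interferon and erythroid lists move from -2.11, -0.60 and -0.90 to 0.04, 0.38 and 0.15 without these libraries.

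The MTE libraries, which share no library with the Sham comparison, measured the knockout a second time, in overloaded muscle. They set part of the spread behind the Sham calls, so the 2 sets of calls are not fully separate. Trim28 itself lay at 35.3 to 60.9 CPM in WT MTE and at 18.0 to 30.3 CPM in KO MTE. Its log2 fold change in MTE was -0.99 (SE 0.26, adjusted p = 0.0822) and was not called, against -1.84 in Sham. Of the 88 genes, 86 had the same sign in MTE (97.7%, against 63.6% of all genes tested). In that direction 48 were also called, 54.5% of the Sham calls and 19% of the 253 MTE calls (1.47% of genes tested). Among the higher genes 33 of 57 and among the lower ones 15 of 31 were called again, where 1.21% and 0.256% of all genes were called in those directions. The exceptions in sign were Sbk2, a kinase gene (-1.04 in Sham, with adjusted p = 0.0550 without the 2 libraries, and 0.28 in MTE), and Tcfl5 (2.39 and -0.19). The values were smaller in size in MTE for 70 of the 88 genes, with medians of 1.08 over the genes higher in Sham and -0.88 over the lower ones. Genes were selected on the Sham values. Trim28 itself had -0.99 in MTE and -1.84 in Sham, or -1.38 in Sham without the 2 libraries. Its knockout effect was not called as different between the surgeries (edgeR, adjusted p = 0.989). What made the values smaller was not tested. When the MTE libraries were fitted without the Sham ones, 61 of the 88 were called in the same direction. The 88 calls themselves still used spread from the MTE libraries. With each surgery fitted alone, the 6 genes called in Sham all had the same sign in MTE, and all 6 were called there.

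Esr1 in MTE muscle lay at 27.0, 37.9, 27.1 and 27.6 CPM in WT and at 182, 144, 181 and 261 CPM in KO, again without overlap (log2 fold change 2.68, SE 0.20). Mss51 had 101, 106, 107 and 74.6 CPM in WT MTE and 13, 3.62, 6.94 and 4.11 CPM in KO MTE (-3.81, SE 0.55), and Gm39469 had 1.92 to 2.44 CPM against 15.3 to 27.2 CPM (3.33, SE 0.21). Each of these differences was close to its Sham value. For Rian the MTE levels were 174 to 306 CPM in WT and 388 to 993 CPM in KO, and the log2 fold change was 1.61 (SE 0.35, adjusted p = 0.0339). The run on chromosome 10 was called in MTE at Zfp873, BC024063, AU041133, Gm47572 and Zfp938, and not at Gm3055 (0.75, adjusted p = 0.129), Zfp781 (1.12, adjusted p = 0.147) and Gm4924 (0.29, adjusted p = 0.650). Fhl1 lay at 2781 to 5041 CPM in WT MTE and at 1162 to 1727 CPM in KO MTE (-1.30, SE 0.23).

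For a difference between the knockout effect in MTE and in Sham, edgeR called 0 genes, while 605 had an unadjusted p under 0.05. DESeq2 called 10, of which Sbk2 was the 1 among the 88, and limma voom 0. Without the 2 libraries that stood apart edgeR called 1, Gusb, a lysosomal glucuronidase that is not among the 88. For genes outside these calls, an effect called in one surgery and not in the other was not shown to differ.

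**Figure D5:**
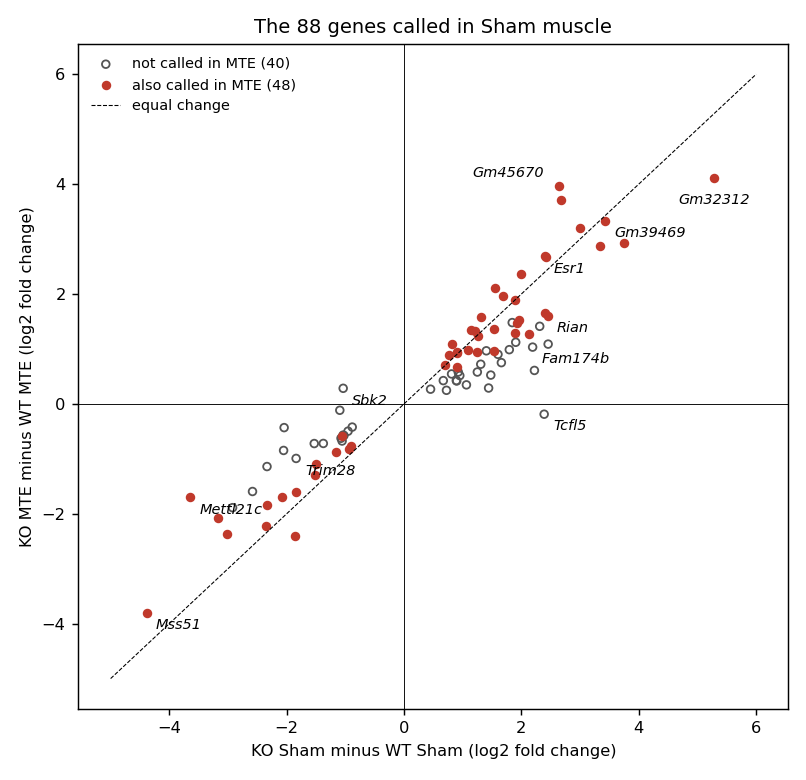
Log2 fold change KO minus WT in MTE (vertical) against that in Sham (horizontal) for the 88 genes called in Sham, with the 48 also called in MTE filled. All but 2 points, Sbk2 and Tcfl5, lie in the quadrants of equal sign, and 70 lie nearer to 0 in MTE than in Sham.

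The authors' deposited table gave 122 of 17217 genes an FDR under 0.05 for KO Sham against WT Sham (0.709%). Of the 88 genes called here 70 were among these in the authors' deposited table. Those not among them included Pfn2, an actin-binding profilin, Sord, Zfp329, Zfp706, Gm5141 and Pdzd3.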

How the data were processed

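Total RNA of plantaris muscle was depleted of cytoplasmic and mitochondrial ribosomal RNA and made into libraries with a stranded kit, per the labels' protocols. Expected counts per gene were deposited by the authors, with 90.9% of the estimated counts within 0.01 of a whole number. STAR, RSEM, edgeR and the build GRCm38 are named in the submitters' processing notes, and versions, roles and the strand setting are not stated there. Per the file headers the authors' table of comparisons holds FDR-adjusted p-values, and the log2 values that the authors deposited are TMM-normalised. Their log2 values were not used here. The column of that table for WT MTE against KO MTE was identical to the one for WT Sham against WT MTE and was not used.

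Counts were rounded, filtered with filterByExpr by group and scaled by TMM. Means of the 4 groups were fitted to all 15 libraries (11 residual degrees of freedom) with edgeR 4.0.16 (robust quasi-likelihood, R 4.3.3). The plan was for 16 samples, of which 15 had a column. SE is the log2 fold change divided by the root of F. CPM are counts relative to the TMM-scaled library size. Gene lists were described by counts and medians, with log2 CPM at a prior count of 2. Gene positions are from GENCODE M21, in which 17210 of 17230 genes were found. Alternatives used DESeq2 1.42.0 and limma 3.58.1, other filters and scaling, Sham libraries alone and libraries left out. The smallest chi-square per gene between libraries of a group was 36.5, so none were copies. The test was checked on simulated counts, in which it missed some of the genes that had been changed and called a few that had not.

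Genes named in the text are Trim28, the 15 largest called changes in each direction among genes without overlap, the 5 smallest p in each direction, called list members (4 where a list had more than 6), the smallest p of other lists and called genes in runs. Other named genes, and groupings of called genes by role, were chosen after their values were seen. The lists and this rule were chosen with earlier results of these data known.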

Additional observations from a re-analysis of the deposited data

Results flagged for a closer look

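In the WT Sham group of 4 libraries, 16 of 119 groups of values were flagged. Each held a library whose gap to its nearest neighbour was large against the whole range, where chance gives about 1 in 20. That rate is for independent values, and single genes such as Lyz2 were counted beside the lists that hold them. The 16 flags are therefore no measure of an excess over that rate. WT Sham 1 was the high library for Kcng4 (10.9 CPM against 5.66 to 6.35 in the others), Tcfl5 (0.293 CPM against 0.0839 to 0.117), Cxcl10 (12.8 CPM against 0.440 to 1.05), Ctss (274 CPM against 13.2 to 17.1), Lyz2 (2040 CPM against 124 to 198), Gzmb (3.24 CPM against 0.0587 to 0.322) and Hbb-bt (101 CPM against 6.71 to 19.5). It was also the high library for the mean log2 CPM of macrophage markers (6.08 against 2.72 to 3.06), interferon-stimulated genes (4.1 against 1.87 to 1.94), junction and denervation genes (3.45 against 2.92 to 2.98) and heat shock genes (6.16 against 5.66 to 5.71). It was the low library for mitochondrially encoded genes (9.44 against 10.5 to 10.7) and for the mitochondrial share (6.95% against 13.3% to 14.4%). WT Sham 2 was the low library for atrogenes (5.58 against 6.13 to 6.19) and for Gm39469 (1.45 CPM against 1.80 to 1.85), and WT Sham 4 the one library in which Gm38534 was above 0 (0.0587 CPM). Of the called genes here, Kcng4, Tcfl5, Gm39469 and Gm38534 were also called without WT Sham 1 and KO Sham column 3, with log2 fold changes of 3.66, 2.95, 3.19 and 3.44.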

How the results depend on the processing

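The number of genes called in Sham muscle was 278 with DESeq2 (152 higher, 126 lower), 367 with limma voom and sample quality weights (176 higher, 191 lower), 6 with the Sham libraries alone and 236 with both WT Sham 1 and KO Sham column 3 left out, and 39 to 98 when single libraries were left out. All 88 genes were among the DESeq2 calls and 85 among those with quality weights, and 30 were called in each of the 7 fits without 1 library. The count was lowest without KO Sham column 2 (39) and column 1 (40) and without WT Sham 3 (45), 4 (50) and 2 (56). With RLE size factors, no filter, a minimum of 1 CPM in 3 libraries or limma voom it stayed within 1.5 times. Trim28 missed the threshold with the Sham libraries alone (-1.86, adjusted p = 0.183). The interaction had 10 calls with DESeq2 and, in an alternative chosen after seeing the data, 1 without both libraries. Signs reversed for uncalled genes, among them Zfp445, Atp2a1 and Esrra (-0.067, 0.049 and 0.48 without both libraries) and Dlk1 (0.33 without KO Sham column 2). Dazl was -0.042 without both libraries, Scx -0.18 without KO Sham column 2 (to 0.87 without column 3), mt-Atp6 -0.24 with quality weights, -0.19 without column 3 (to 1.13 without column 1) and -0.43 without both, and Hbb-bt 0.47 with quality weights, 0.26 without WT Sham 1 (to -1.74 without KO Sham column 1) and 0.70 without both. The cause of these differences was not tested. Of 746 values of the called named genes under alternatives, 566 kept their call and 0 changed sign. No paired analysis was possible, because the labels give no pairs and do not tie libraries to mice. The 3 KO Sham columns could also not be matched to the 4 numbered KO Sham samples.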
